A study of Mus musculus with 2 samples.

Results

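Cpa3-high basophil-lineage cells were described in single-cell RNA-seq of mouse bone marrow, hypoxia against control. Members were cells with under 20% of their UMIs (unique molecule counts) from mitochondrial genes, at least 20 UMIs of Mcpt8 plus Prss34 per 10000 UMIs of the cell (CP10K), under 10 CP10K of Epx and at least 20 CP10K of Cpa3. Of 10342 cells kept by the mitochondrial limit, 644 were members, 500 of 6392 under hypoxia and 144 of 3950 in the control. The hypoxia group consisted of ICR mice, an outbred stock, kept for 13 days in a chamber at 52.93 kPa, a pressure set to match 5000 m, with 19.5% oxygen. The control group consisted of ICR mice killed on arrival, so that time, housing and handling cannot be told apart from hypoxia. Both groups are labelled as 7 to 8 weeks old, and in both the marrow was cleared of lineage-positive cells by magnetic selection before capture on the BD Rhapsody system. How many mice were pooled into a library is not stated. With 1 library in each group there was no replicate, no test was possible, and every interval below covers counting error only.

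Basophils are rare granulocytes that bind IgE through the high-affinity receptor FcεRI, store histamine and proteases in granules, and release these and type 2 cytokines on activation. In the mouse they arise in the bone marrow from granulocyte-monocyte and basophil-mast cell progenitors under interleukin-3 and the transcription factors GATA2 and C/EBPα. Mcpt8 and Prss34 encode basophil granule proteases (mMCP-8 and mMCP-11), and Cpa3 encodes carboxypeptidase A3, a granule enzyme of both mast cells and immature basophils.

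The hypoxia table held 137504361 UMIs in 6406 cells and that of the control 3956 cells with 121415081 UMIs, and the mitochondrial limit removed 14 and 6 cells. Members contributed 5328030 UMIs under hypoxia and 1757093 in control, with a median of 9311 and 11857 UMIs and 3158.5 and 3630.5 genes per cell. All other kept cells were deeper, at a median of 23064 and 33615 UMIs. The median mitochondrial share of members was 4.15% in hypoxia and 4.23% in control. The tables shared 23 cell indices, of which 1 belonged to a hypoxia member and 3 to control members.

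Members made up 7.82% of kept hypoxia cells (95% Clopper-Pearson interval 7.18 to 8.51) and 3.65% of kept control cells (3.08 to 4.28), a ratio of 2.15 (1.78 to 2.60). The remaining basophil-lineage cells, with Cpa3 below 20 CP10K, made up 2.11% in hypoxia (135 cells) and 2.28% in control (90 cells), a ratio of 0.927 (0.705 to 1.22). Members were thus 78.7% of basophil-lineage cells under hypoxia and 61.5% in control. With non-members at 20 CP10K or more of erythroid markers left out, the member share was 16.2% in hypoxia and 7.99% in control. These shares rest on the genes of the rule and depend on how many other cells each library captured. The 5 members nearest the limit had 20.3 to 20.9 CP10K of Cpa3 in hypoxia and 22.2 to 23.1 in control, and the 5 nearest cells outside had 19.6 to 19.9 and 19.1 to 19.6. Cpa3 was continuous across the limit: 72 hypoxia and 29 control lineage cells lay between 20 and 30 CP10K, and 76 and 39 between 10 and 20. With the minimum at 40 CP10K, 377 hypoxia and 76 control cells remained and the ratio of shares was 3.07.

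**Figure D1:**
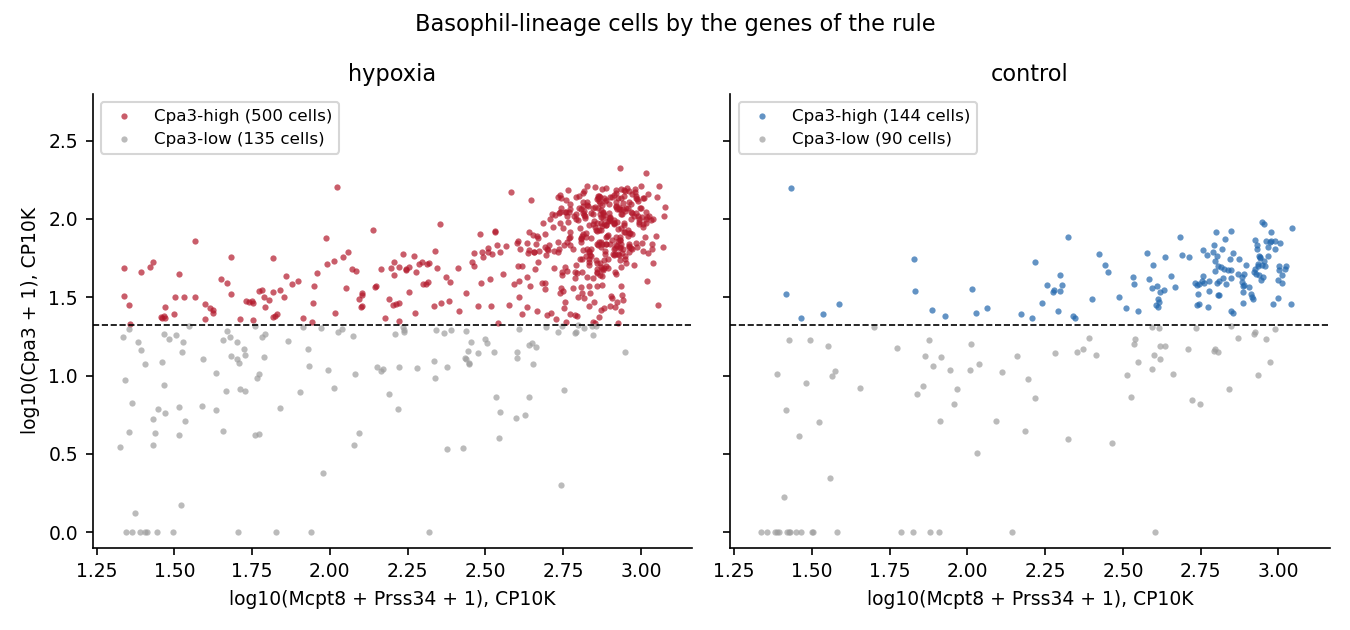
Each point is 1 basophil-lineage cell of the hypoxia (left) or control (right) library, by Mcpt8 plus Prss34 (x axis) and Cpa3 (y axis), both as log10(CP10K + 1); the dashed line marks 20 CP10K of Cpa3. The 500 hypoxia members reach higher Cpa3 than the 144 control members, and cells are spread continuously over the limit in both libraries.

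The markers given for these cells were all found in members, but Prss34, Mcpt8 and Cpa3 are genes of the rule. Over members, Prss34 had 31953 CPM (UMIs of the gene per 1000000 UMIs of all members of the library) in hypoxia and 28109 CPM in control, and Mcpt8 had 24769 and 30029.7 CPM. Gata2, the transcription factor shared by basophils, mast cells and early progenitors, had 2466 CPM in hypoxia and 2541 CPM in control. The rule used neither Gata2 nor Fcer1a. Gata2 did not set members apart from Cpa3-low cells, which had 2411 and 2485 CPM. All other kept cells had 36.3 and 66.4 CPM of Gata2. Fcer1a, the IgE-binding chain of FcεRI, had 1544 and 794 CPM in members, 741 and 554 CPM in Cpa3-low cells, and 2.50 and 1.54 CPM in all other kept cells. Per cell, Mcpt8 had a median of 280.5 CP10K in hypoxia (quartiles 162 and 347) and 308.1 in control (217 and 405). Cpa3 had a median of 63.4 CP10K in hypoxia (40.6 to 99.8) and 41.4 in control (32.2 to 54.8). The cells were chosen by their measured Mcpt8, Prss34, Cpa3 and Epx, and values of these genes are given as description.

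Promoters of the genes that mark these cells are shown as background, with GATA motifs of the letters AGATAA in capitals (TTATCT where the motif is on the other strand). They are the 250 bases before the RefSeq start of each gene on GRCm38.p6, written on the strand of the gene. The regions are chr3:20242182-20242431 on the minus strand for Cpa3, chr17:25298144-25298393 on the plus strand for Prss34, chr1:173227230-173227479 on the minus strand for Fcer1a and chr14:56085198-56085447 on the minus strand for Mcpt8.
Cpa3: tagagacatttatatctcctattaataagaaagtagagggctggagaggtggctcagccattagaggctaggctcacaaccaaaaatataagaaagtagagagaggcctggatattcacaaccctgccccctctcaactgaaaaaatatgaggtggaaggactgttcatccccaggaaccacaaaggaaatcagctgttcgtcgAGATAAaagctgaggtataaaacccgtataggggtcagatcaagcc
Prss34: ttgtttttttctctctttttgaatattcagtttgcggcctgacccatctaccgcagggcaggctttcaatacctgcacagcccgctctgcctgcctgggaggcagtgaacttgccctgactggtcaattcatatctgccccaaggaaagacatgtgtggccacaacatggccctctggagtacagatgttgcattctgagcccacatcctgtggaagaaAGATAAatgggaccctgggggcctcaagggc
Fcer1a: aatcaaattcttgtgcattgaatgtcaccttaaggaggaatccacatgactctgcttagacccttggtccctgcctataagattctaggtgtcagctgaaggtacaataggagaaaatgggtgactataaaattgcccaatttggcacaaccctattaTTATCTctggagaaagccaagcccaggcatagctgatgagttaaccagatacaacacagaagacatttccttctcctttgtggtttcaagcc
Mcpt8: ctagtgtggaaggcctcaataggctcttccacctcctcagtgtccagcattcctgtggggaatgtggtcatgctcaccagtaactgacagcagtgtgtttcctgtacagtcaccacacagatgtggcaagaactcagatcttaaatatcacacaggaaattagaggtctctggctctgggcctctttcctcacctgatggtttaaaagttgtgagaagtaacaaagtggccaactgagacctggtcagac
The motif, on either strand, was found in 4 of 5 promoters searched (Cpa3, Prss34, Fcer1a and Ms4a2) and in 3281 of all 32851 RefSeq promoter windows of that length (9.99%). The Mcpt8 window did not hold these letters. A match of letters is a description and not a bound site.

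Members also carried transcripts of granulocyte progenitors, and sums of several other marker lists differed between the libraries. Summed mast cell markers (Tpsab1, Tpsb2, Cma1, Mcpt4, Mrgprb1 and Mrgprb2) came to 30.2 CPM in hypoxia and 62.6 CPM in control, with 2 and 4 of the 6 genes at 0. Granulocyte progenitor and neutrophil markers summed to 4272 CPM in hypoxia and 4436 CPM in control, mostly from Mpo (myeloperoxidase, 1834 and 2682 CPM) and Ctsg (cathepsin G, 1841 and 1624 CPM). They reached 10 CP10K in 363 hypoxia members (72.6%) and 125 control members (86.8%), and their sum exceeded the level of Ms4a2, Gata2 or Fcer1a. Gene by gene, 9 of these markers had at least 50 UMIs over both libraries. Of the 9, 7 were at least 1.5-fold higher in hypoxia and 0 lower, against 4.90% and 2.81% of all such genes. The median log2 ratio of hypoxia over control over the 9 was 1.52, and 0.63 to 1.87 under the alternatives run. Some of these ratios rest on few cells: a large part of the hypoxia UMIs of Elane and S100a9 lay in 1 cell, as given below. Prtn3 turned to −0.22 with the mean of per-cell CPM. Per cell, the summed list had a lower median in hypoxia, 26.9 CP10K against 35.5 in control. Eosinophil markers summed to 968.7 and 188 CPM, most of it Ear1 and Ear2, and reached 10 CP10K in 97 hypoxia members (19.4%) and 5 control members (3.47%), while the eosinophil peroxidase gene Epx, which the rule limited, had 34.2 and 14.8 CPM. Erythroid markers summed to 468 CPM in hypoxia and 71.7 CPM in control members, against 5591 and 4169 CPM in all other kept cells. Erythroid markers reached 10 CP10K in 17 hypoxia members (3.4%) and 2 control members (1.39%). Monocyte markers summed to 300.1 and 42.7 CPM, of which Ms4a6c gave 182 and 1.14 CPM. The part of these other markers in the results below was not tested, except where values without the cells that carry them are given. Stem cell, lymphoid, dendritic, megakaryocyte and stromal markers each summed to at most 61.5 CPM in either library.

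Within the members, levels of some genes followed that of Mcpt8 plus Prss34. Cells of both libraries were divided at 495.0 and 762 CP10K into a lowest, middle and highest tercile (cut over both libraries together) of 164, 170 and 166 hypoxia and 51, 44 and 49 control cells. The receptor tyrosine kinase gene Kit had 102, 18.1 and 5.82 CPM from the lowest to the highest tercile in hypoxia, and 139.7, 53.8 and 3.71 CPM in control. Cd34, a surface marker of progenitors, had 145, 39.4 and 16.2 CPM in hypoxia and 170.2, 47.1 and 13.0 CPM in control. Both progenitor genes were thus at their lowest where the basophil proteases were at their highest, in each library. Sox4, a transcription factor of early progenitors, had 187, 61.9 and 17.5 CPM in hypoxia and 579.6, 121 and 42.6 CPM in control.

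Cpa3, a gene of the rule, and Fcer1a ran the other way across the same terciles. Cpa3 had 4830.4, 8566 and 9685 CPM in hypoxia and 3651, 4590.3 and 5250.4 CPM in control. Fcer1a had 812, 1723 and 2259 CPM in hypoxia and 427, 709.8 and 1312 CPM in control. Mki67, a marker of cycling cells, had 374, 692 and 655 CPM in hypoxia and 292, 421 and 693 CPM in control, so that cells high in granule proteases still carried proliferation transcripts. Mpo, summed over cells, had 2435, 1761 and 1158 CPM in hypoxia and 3988, 2607 and 1256 CPM in control. Across cells, Mcpt8 plus Prss34 had a Spearman correlation with Fcer1a of 0.43 over 500 hypoxia members and 0.45 over 144 control members, where all values of a library share its total per cell as denominator. By the same measure Ms4a2 had 0.25 and 0.037 and Gata2 had 0.14 and 0.085, both lower than Fcer1a. Kit had −0.27 and −0.54, and Mpo had 0.089 and −0.30. UMIs per cell had 0.046 and −0.093, and median depth from the lowest to the highest tercile was 6879, 10019.5 and 8952.5 UMIs in hypoxia and 11975, 12492 and 10980.0 UMIs in control.

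**Figure D2:**
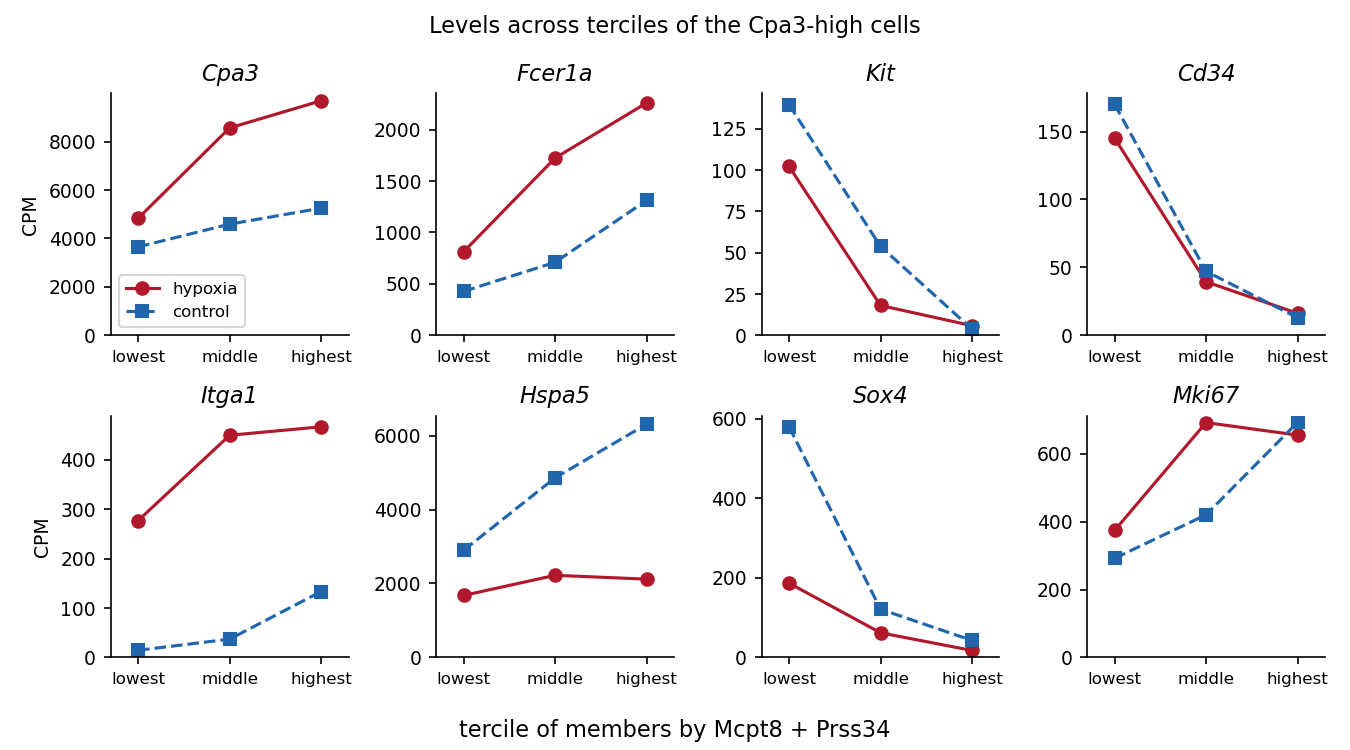
CPM of 8 genes (y axis, from 0) in the lowest, middle and highest tercile of members by Mcpt8 plus Prss34 (x axis), hypoxia in red circles and control in blue squares. Kit, Cd34 and Sox4 are lowest in the highest tercile of both libraries, Cpa3 and Fcer1a are highest there, Itga1 is higher in hypoxia in every tercile, and Hspa5 is lower in hypoxia in every tercile.

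Members were next set against Cpa3-low basophil-lineage cells, which differ from them by the rule in Cpa3. Over the Cpa3-low cells of the same library, 133 of 9286 genes (1.43%) were at least 1.5-fold higher in members in both libraries and 266 (2.86%) were at least 1.5-fold lower. After Cpa3, the largest excess in members belonged to Scin (scinderin, an actin-severing protein; 69.8 and 103 CPM in members, 1.04 and 16.3 CPM in Cpa3-low cells, hypoxia before control), Edem3, Sdf2l1, Gzmb, Ptprs, Gm17590, Serpini1, Prss34 and Hspa5. Edem3 acts in disposal of misfolded glycoproteins, and Sdf2l1 and Hspa5 are endoplasmic reticulum chaperones. Genes lower in members were led by Cd7, Mef2c, Il7r, Zfp36, Ccl6, C3ar1, Elane, Car1, S100a6 and Prtn3. Cd7, a surface protein of lymphoid cells and progenitors, had 19.7 and 7.97 CPM in members against 143 and 181 CPM in Cpa3-low cells. Over all other kept cells, 1526 of 14092 genes were higher in members in both libraries (10.8%) and 1970 were lower (14.0%), and the leading ones were Prss34, Mcpt8, Cpa3, Ms4a2, Fcer1a, Alox5, Ets1, Csf1, Csf2rb2 and Gata2. These orders follow from how the cells were chosen and are given as description.

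Between the libraries, 435 of 8885 genes measured in members (at least 50 UMIs over both libraries) were at least 1.5-fold higher in hypoxia (4.90%) and 250 were at least 1.5-fold lower (2.81%), together 7.71% of the genes, on log2 ratios of CPM with 10 CPM added. The median over all measured genes was 0.04. Higher genes were 63.5% of these calls, a split that moved to 345 higher and 319 lower (52.0% higher) with TMM scaling and to 347 and 318 (52.2%) with median-of-ratios scaling. Of the 435 higher genes, 281 were measured in Cpa3-low cells, where 142 passed the same fold in the same direction and 4 in the opposite one. In all other kept cells 428 were measured, of which 93 passed in the same direction and 1 in the opposite one. Of the 250 lower genes, 82 of 151 measured passed in the same direction in Cpa3-low cells and 45 of 249 in all other cells, with 3 in the opposite direction in each. The Cpa3-low background was 8.36% higher and 5.88% lower of 5455 genes, and that of all other cells 2.33% and 1.13% of 13968.

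Surface and nuclease genes led the genes higher in hypoxia members. Ear1 is a member of the eosinophil-associated ribonuclease family (chr14:43818765-43875517 in GENCODE vM21 on GRCm38). It had 706 CPM in hypoxia and 9.11 CPM in control, a ratio of 77.5 (47.7 to 136), with a UMI in 26.6% and 7.64% of members. Its neighbour Ear10 (chr14:43922720-43923559) lay at the other end of the ranking, with 0.375 CPM in hypoxia and 126 CPM in control, a ratio of 0.00298 (0.000359 to 0.0109) that rests on UMIs in 0.4% and 22.2% of members. Ear2 had 214 and 159.9 CPM. Ear genes are near-identical copies, and the division of reads among them is uncertain in outbred mice. Summed over the family, the level was 920.6 CPM in hypoxia and 297 CPM in control. Ear1 was higher in hypoxia in all other kept cells too, at 21.9 and 0.429 CPM. Those cells include the ones that the rule set aside for Epx, and their Prss34 also differed, at 31.7 and 4.60 CPM. The part of such cells and of free RNA in the Ear1 values was not tested.

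A pair of neighbouring genes of the Ms4a cluster on chromosome 19, a region that also holds Ms4a2, came next. Ms4a6c (chr19:11469366-11482192) had 182 CPM in hypoxia and 1.14 CPM in control, with a UMI in 70.0% and 1.39% of members. The ratio was 159.9 (44.2 to 1323), resting on 2 control UMIs. Ms4a6b (chr19:11516512-11531256) had 142 and 2.85 CPM, a ratio of 49.9 (21.3 to 154), with a UMI in 64.8% and 3.47% of members. In all other kept cells Ms4a6c had 94.2 and 11.9 CPM and Ms4a6b had 10.1 and 2.43 CPM. Thinned to 3000 UMIs per cell (477 hypoxia and 140 control members), Ms4a6c had a UMI in 40.04% of hypoxia and 0% of control members, against 0.758% and 0.140% of erythroid-marker cells. Ms4a6 genes are paralogs of similar sequence, so their split is also uncertain.

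Itga1, which encodes the α1 integrin chain of a collagen receptor (chr13:114953096-115101964), had 392 CPM in hypoxia and 58.6 CPM in control members, a ratio of 6.68 (5.48 to 8.22). A UMI of Itga1 was found in 83.6% and 31.2% of members. In members thinned to 3000 UMIs the shares were 59.7% (55.2 to 64.2) and 15.0% (9.53 to 22.01), while erythroid-marker cells had 0.182% and 0.0934%. Across terciles, Itga1 had 277, 450.0 and 467 CPM in hypoxia and 14.5, 37.0 and 133 CPM in control. Hypoxia cells lowest in granule proteases thus exceeded control cells highest in them. Cpa3-low cells had 593 and 71.3 CPM, and all other kept cells 3.36 and 2.72 CPM. The log2 ratio in members stayed between 2.15 and 2.82 under every processing alternative run.

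H2-D1, a classical MHC class I heavy chain, was the most abundant gene of the group, with 2536 CPM in hypoxia and 558 CPM in control members (ratio 4.55, 4.26 to 4.86). It had 2936 and 805 CPM in Cpa3-low cells and 1102 and 264 CPM in all other kept cells. Coro2a, an actin-binding coronin, had 154 and 18.8 CPM in members (ratio 8.20) and 33.2 and 5.57 CPM in all other kept cells. The antisense transcript 1700006J14Rik had 85.2 and 3.41 CPM, the lincRNA Gm47015 had 72.1 and 3.98 CPM, and the predicted gene Gm10320 had 103 and 14.8 CPM. All of these were at least 1.5-fold higher in hypoxia outside the basophil lineage as well.

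Genes of red cells completed the higher group. The α-globin gene Hba-a1 had 116 CPM in hypoxia and 10.2 CPM in control members, the β-globin gene Hbb-bs had 57.8 and 3.41 CPM, and Car2 (carbonic anhydrase 2) had 341 and 62.6 CPM. In all other kept cells the levels were far above these, at 1190.4 and 468 CPM for Hba-a1, 758 and 246 CPM for Hbb-bs, and 4059 and 3335 CPM for Car2. A single hypoxia cell held 23.5% of the members' Hba-a1 UMIs, 28.9% of those of Hbb-bs and 19.7% of those of Car2. Without members that reached 10 CP10K of erythroid markers, an alternative chosen after seeing the data, the log2 ratios were 1.01 for Hba-a1, 0.84 for Hbb-bs and 0.67 for Car2, against 2.63, 2.34 and 2.28 with all members. With the cells called doublets removed they were 1.34, 1.09 and 1.12. The part of free RNA in these values was not tested. In cells thinned to 3000 UMIs, Hba-a1 had a UMI in 11.9% of hypoxia and 1.43% of control members, against 48.0% and 29.6% of erythroid-marker cells.

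**Figure D3:**
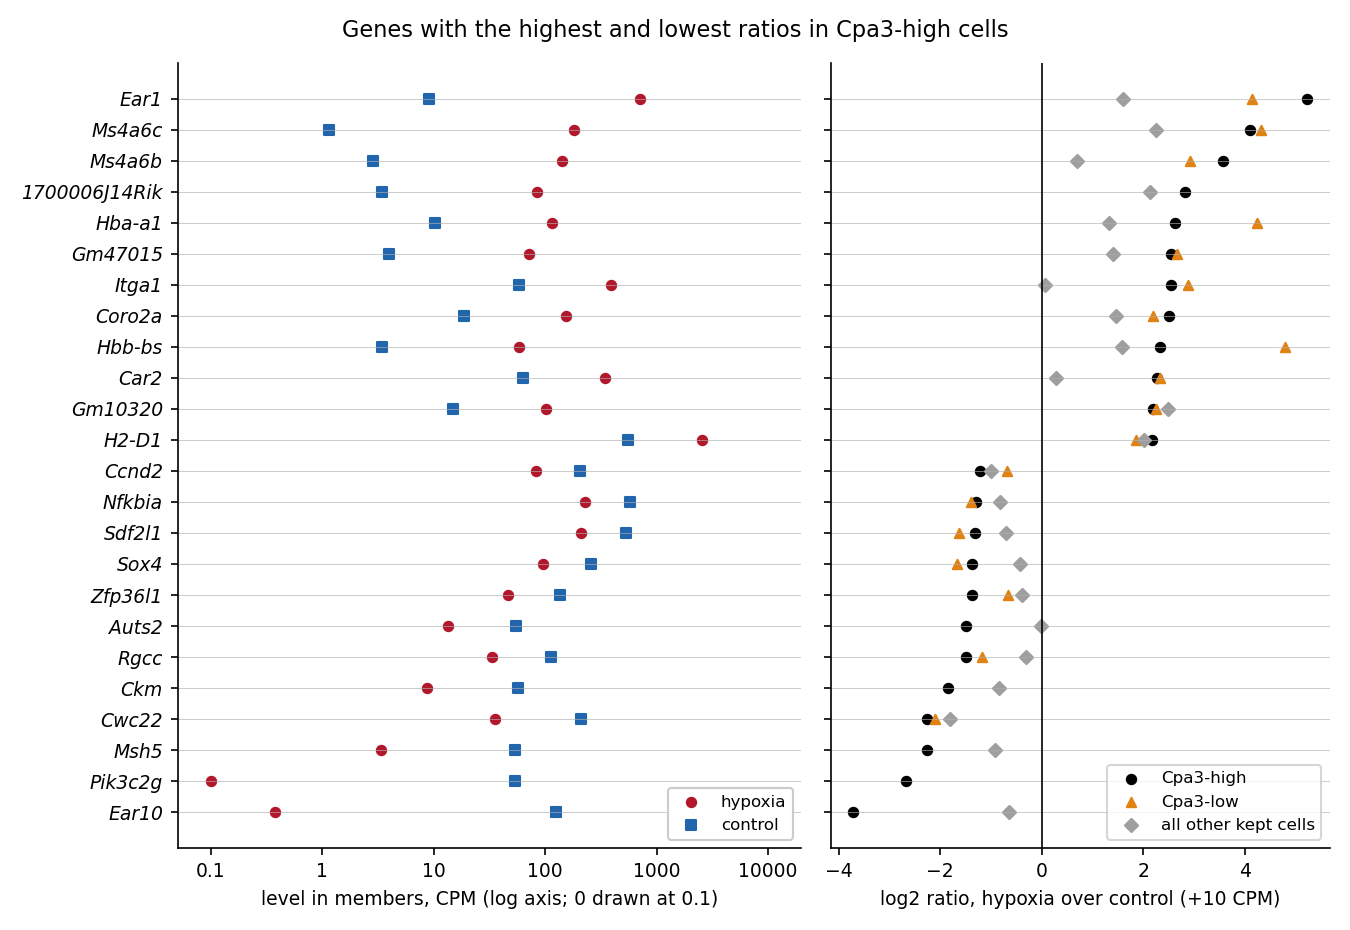
Left, level in members (CPM, log axis, 0 drawn at 0.1) of the 12 genes with the highest and 12 with the lowest ratio, hypoxia in red circles and control in blue squares; right, log2 ratio of hypoxia over control in Cpa3-high cells (black circles), Cpa3-low cells (orange triangles) and all other kept cells (grey diamonds), with no symbol where a gene was not measured. Itga1 lies near 0 in all other kept cells and above 2 in both basophil-lineage classes, while H2-D1 and Gm10320 lie at about the same ratio in all 3.

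Genes lower in hypoxia members included regulators of progenitors and of proliferation. Sox4 had 94.8 CPM in hypoxia and 259.5 CPM in control members (ratio 0.365, 0.321 to 0.415), and 104 and 143 CPM in all other kept cells. In members thinned to 3000 UMIs, 12.2% and 29.3% had a UMI of Sox4. Ccnd2, the gene of cyclin D2, had 82.8 and 207 CPM (ratio 0.401), and Zfp36l1, an RNA-binding protein that promotes decay of AU-rich mRNAs, had 46.0 and 135 CPM. Nfkbia, the inhibitor of NF-κB that NF-κB itself induces, had 229 and 574 CPM (ratio 0.399). Sdf2l1 had 209 and 536 CPM (ratio 0.390). Rgcc, a regulator of the cell cycle, had 33.4 and 113 CPM, and Auts2 had 13.3 and 55.2 CPM in members but 3.26 and 3.32 CPM in all other kept cells. Ccnd2 (119 and 249 CPM), Nfkbia (64.3 and 121 CPM) and Sdf2l1 (56.1 and 97.7 CPM) were at least 1.5-fold lower in all other kept cells too. Sox4, Zfp36l1, Rgcc and Auts2 did not pass the fold there.

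Some lower genes were close to absent from hypoxia members, though Cwc22 still had a UMI in 26.6% of them. Pik3c2g, a class II phosphoinositide 3-kinase gene (chr6:139587221-139969284), had 0 UMIs in hypoxia members and 54.1 CPM in control members, at least 96.0-fold lower against a floor of 3 counts over all hypoxia members. In all other kept cells it had 0.107 and 0.109 CPM. Msh5, a meiotic mismatch repair homologue, had 3.38 and 54.1 CPM in members. Cwc22, a splicing factor, had 35.5 and 208 CPM in members and 55.4 and 217 CPM in all other kept cells. Ckm, muscle creatine kinase, had 8.63 and 56.9 CPM. Cwc22 is known to vary in copy number among mice. With outbred mice and 1 library in each group, inherited differences at Cwc22, Msh5 and the other named genes cannot be told apart from hypoxia. Of the 24 named genes, all 18 that were measured in Cpa3-low cells passed the same fold there in the same direction, as did 17 of 23 in all other kept cells.

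Of the FcεRI chains, the IgE-binding one alone passed 1.5-fold. Of 20 genes of the receptor and its signalling, all measured, 3 were at least 1.5-fold higher and 0 lower, with 6 below 0 and a median of 0.14 log2 in members, against 0.11 in Cpa3-low cells and 0.19 in all other kept cells. The counts of this and the following lists are to be read against 4.90% higher and 2.81% lower of all genes measured in members. Fcer1a had 1544 CPM in hypoxia and 794 CPM in control (ratio 1.94, 1.84 to 2.06), and its excess held in each tercile. Ms4a2, the β chain of the receptor, had 3294 and 2402 CPM (ratio 1.37), and Fcer1g, the shared γ chain, 898 and 868 CPM. The adaptor gene Lat2 had 515 and 314 CPM (ratio 1.64) and the kinase gene Prkcb 53.7 and 30.7 CPM. The kinase genes Syk and Btk had 66.1 and 63.2 CPM, and 122 and 78.5 CPM. In members thinned to 3000 UMIs, Fcer1a had a UMI in 86.4% of hypoxia and 74.3% of control cells.

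Apart from Cpa3 and Tpsb2, no measured granule protein gene differed by 1.5-fold. Of 21 genes, 13 were measured, with 1 higher and 1 lower and a median of 0.18 in members. The higher one was Cpa3, at 7519 CPM in hypoxia and 4460.2 CPM in control. The lower one was Tpsb2, a mast cell tryptase, at 26.7 and 49.5 CPM, but 1 control cell held 79.3% of the control UMIs, and without the top cell of each library the log2 ratio was 0.63. Srgn, the proteoglycan core that packs granule proteases, had 4473 and 4422 CPM, Cd63, a granule membrane protein exposed on degranulation, 1732 and 1286 CPM, and Gzmb 84.3 and 93.9 CPM.

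Enzymes of histamine and lipid mediators split in direction. Of 18 genes, 12 were measured, with 2 higher, 2 lower and a median of 0.24. Hdc, the histidine decarboxylase that makes histamine, had 1032 CPM in hypoxia and 642 CPM in control (ratio 1.61). Slc18a2, the vesicular transporter that loads histamine into granules, had 165 and 343 CPM (ratio 0.482). Alox15, a 15-lipoxygenase gene, had 436 and 235 CPM (ratio 1.85), whereas the leukotriene pathway genes Alox5 and Alox5ap had 961 and 990.3 CPM, and 2070.2 and 1408 CPM. Ptgs2, the inducible cyclooxygenase gene, had 11.8 and 38.7 CPM.

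Cytokine and chemokine genes were also mixed, with 14 of 19 measured, 2 higher, 1 lower and a median of 0.11. Ccl9, a chemokine, had 1397 CPM in hypoxia and 431 CPM in control members (ratio 3.24, 3.01 to 3.49), and 139 and 41.6 CPM in all other kept cells. Il6 had 134 and 287 CPM (ratio 0.466, 0.415 to 0.524), with a UMI in 29.1% and 43.6% of members thinned to 3000 UMIs. Il4 and Il13, the type 2 cytokines of basophils, had 33.6 and 29.0 CPM, and 8.26 and 7.40 CPM. Ccl3 had 2369 and 1796 CPM, Ccl4 1039 and 1021 CPM, and Tgfb1 50.5 and 29.6 CPM. Among cytokine receptors, Il3ra, the interleukin-3 receptor α chain, had 108 and 96.8 CPM, Csf2rb, the shared β chain, 985 and 1019 CPM, and Il1rl1, the interleukin-33 receptor, 248 and 235 CPM. Of 22 receptor genes 15 were measured and 1 was higher, Il7r at 49.5 and 27.9 CPM.

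Surface and homing genes of mature basophils leaned to higher levels in hypoxia. Of 20 genes 19 were measured, of which 9 were at least 1.5-fold higher and 1 lower, against 4.90% and 2.81% of all measured genes, with a median of 0.50 in members, 0.49 in Cpa3-low cells and 0.35 in all other kept cells. Itga2, whose α2 integrin chain is the CD49b used to sort basophils, had 47.7 CPM in hypoxia and 13.1 CPM in control (ratio 3.64), with a UMI in 19.3% and 4.29% of members thinned to 3000 UMIs. Itgb1, the β1 chain that pairs with both α1 and α2, had 488 and 229.9 CPM (ratio 2.12). The leukocyte integrin genes Itgam and Itgb2 had 58.6 and 17.1 CPM, and 282 and 169.6 CPM. Ccr3, the eotaxin receptor, had 15.6 and 3.98 CPM, and the adhesion receptor Cd44 105 and 57.5 CPM. Cd24a had 227 and 79.7 CPM, of which 1 hypoxia cell held 13.7%, and its log2 ratio was 0.63 without members with erythroid markers and 1.40 with all members. Ccr2 had 15.0 and 1.14 CPM, with 58.8% of the hypoxia UMIs in 1 cell, and Ly6c2 50.5 and 10.2 CPM, with 37.2% in 1 cell. The lower gene was Cxcr4, the receptor that retains cells in marrow through CXCL12, at 621 and 1026 CPM (ratio 0.606).

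Among paired and inhibitory receptors, 14 of 20 were measured, with 2 higher and 1 lower. Lilrb4a, an inhibitory receptor, had 70.6 CPM in hypoxia and 22.8 CPM in control (ratio 3.10), and Cd200r3, an activating receptor of mouse basophils, had 143 and 83.1 CPM. Clec4e, the receptor Mincle, had 12.01 and 31.3 CPM. Kit had 45.4 and 68.9 CPM over all members (ratio 0.660, 0.528 to 0.827), with a UMI in 14.8% and 31.2% of cells. In members thinned to 3000 UMIs the shares with a UMI of Kit were 6.29% (4.28 to 8.86) and 11.4% (6.68 to 17.9). Cd34 had 71.5 and 80.2 CPM (ratio 0.891). Progenitor genes as a list had 13 of 17 measured, with 1 higher (Cd48, 157 and 91.1 CPM), 1 lower (Sox4) and a median of −0.15. Lineage transcription factors had 28 of 32 measured, 1 higher and 2 lower, with a median of −0.08. Lmo4, a LIM-domain cofactor, had 1128 and 1841 CPM and Egr1, an immediate early factor, 112 and 263 CPM, both lower. Irf8, which directs monocyte and basophil fate, had 15.4 and 3.41 CPM, but 45.1% of the hypoxia UMIs came from 1 cell. Cebpa had 879 and 1077 CPM and Runx1 884 and 958 CPM.

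**Figure D4:**
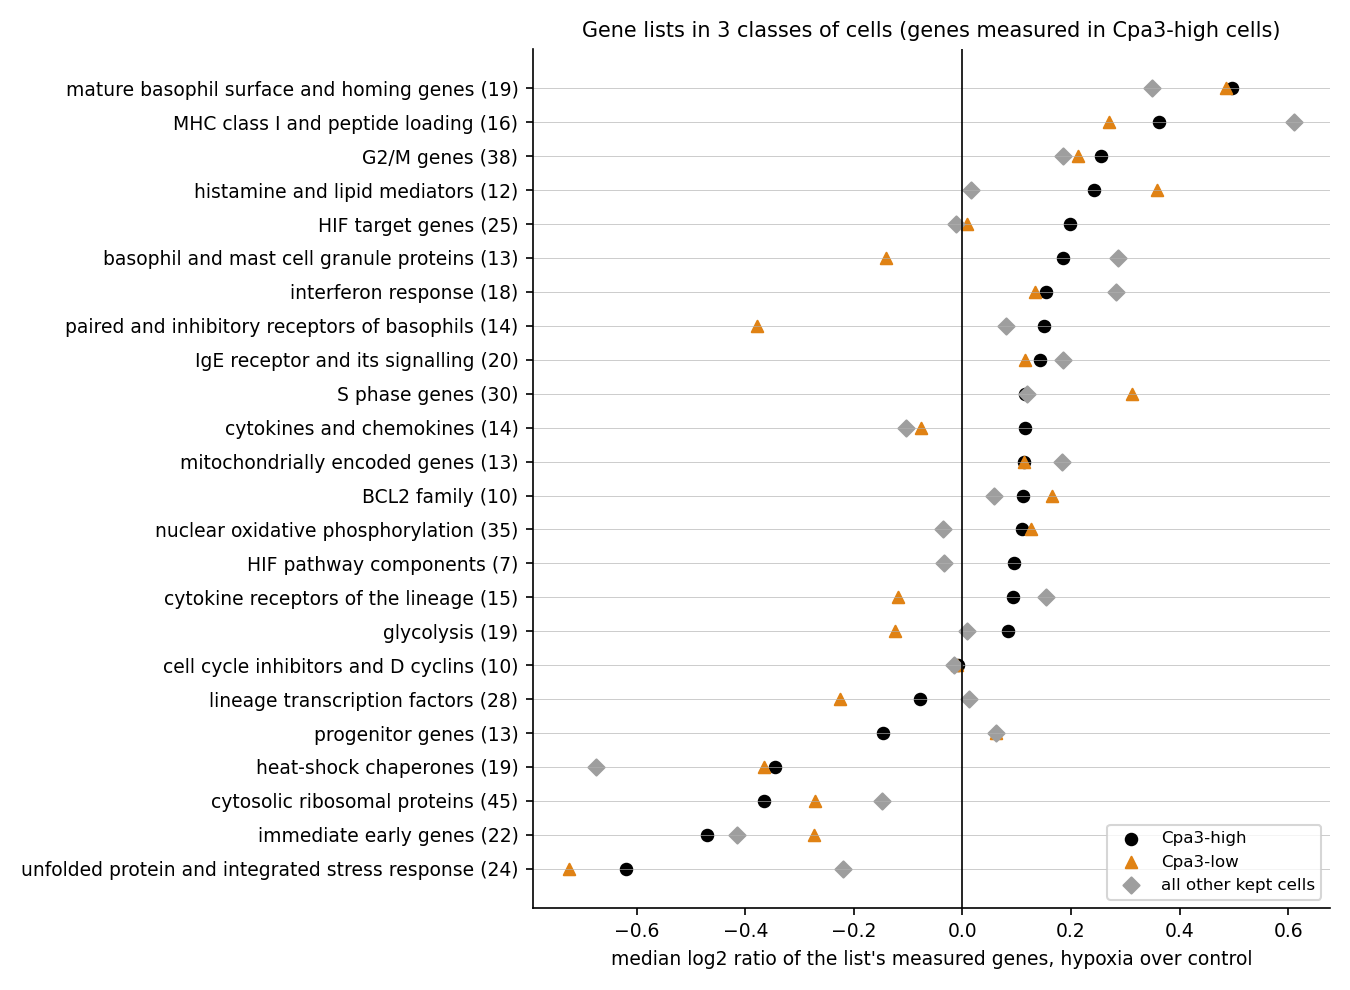
Median log2 ratio of hypoxia over control (x axis, CPM with 10 CPM added) over the measured genes of each list with at least 5 of them (number in brackets), in Cpa3-high cells (black circles), Cpa3-low cells (orange triangles) and all other kept cells (grey diamonds). Among the lists drawn, surface and homing genes lie highest in members at 0.50 and the unfolded protein and integrated stress response lowest at −0.62.

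The list with the lowest median held genes of the unfolded protein response with the integrated stress response. When folding demand in the endoplasmic reticulum rises, the sensors IRE1, ATF6 and PERK induce chaperones, disulphide isomerases and degradation factors through XBP1, cleaved ATF6 and ATF4. Of 27 genes 24 were measured in members, of which 13 were at least 1.5-fold lower in hypoxia and 0 higher, against 2.81% of all genes lower. The median was −0.62 in members, −0.72 in Cpa3-low cells (14 of 22 lower) and −0.22 in all other kept cells (3 of 26 lower, 1 higher). Across the alternatives run, the median in members stayed between −0.85 and −0.57.

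Hspa5, the gene of the chaperone BiP, had 1992 CPM in hypoxia and 4609 CPM in control members (ratio 0.432, 0.420 to 0.445). It had 526 and 1861 CPM in Cpa3-low cells and 539 and 885 CPM in all other kept cells. Hsp90b1, the chaperone GRP94, had 2022 and 3853 CPM in members (ratio 0.525). Co-chaperones of BiP were lower as well, with Dnajb9 at 112 and 237 CPM, Dnajc3 at 274 and 559 CPM and Dnajb11 at 151 and 237 CPM. The isomerase gene Pdia4 had 195 and 384 CPM, and the secreted stress proteins Creld2 and Manf had 164 and 396 CPM, and 371 and 639 CPM. Genes of endoplasmic reticulum-associated degradation included Sel1l at 80.5 and 162 CPM, Syvn1 at 74.3 and 129 CPM and Herpud1 at 205 and 319.8 CPM. The lectin chaperone genes Calr and Canx differed less, at 3931 and 4490.4 CPM, and 769.9 and 1018 CPM.

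Among regulators of the response, Xbp1 had 141 CPM in hypoxia and 202 CPM in control, Atf4 191 and 279 CPM, and Ern1, the gene of IRE1α, 26.5 and 30.2 CPM. Ddit3, the gene of CHOP, had 16.9 and 43.8 CPM (ratio 0.385, 0.281 to 0.530). Sesn2, at 7.88 and 4.55 CPM, was the one measured gene of the list above control. Across terciles, Hspa5 had 1677, 2221 and 2118 CPM in hypoxia and 2897, 4859 and 6310.1 CPM in control, so the libraries were furthest apart in the cells richest in granule proteases. The summed list had a ratio of 0.717, 0.645 and 0.507 in the lowest, middle and highest tercile. The Spearman correlation of Hspa5 with Mcpt8 plus Prss34 across cells was 0.27 over 500 hypoxia and 0.58 over 144 control members.

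**Figure D5:**
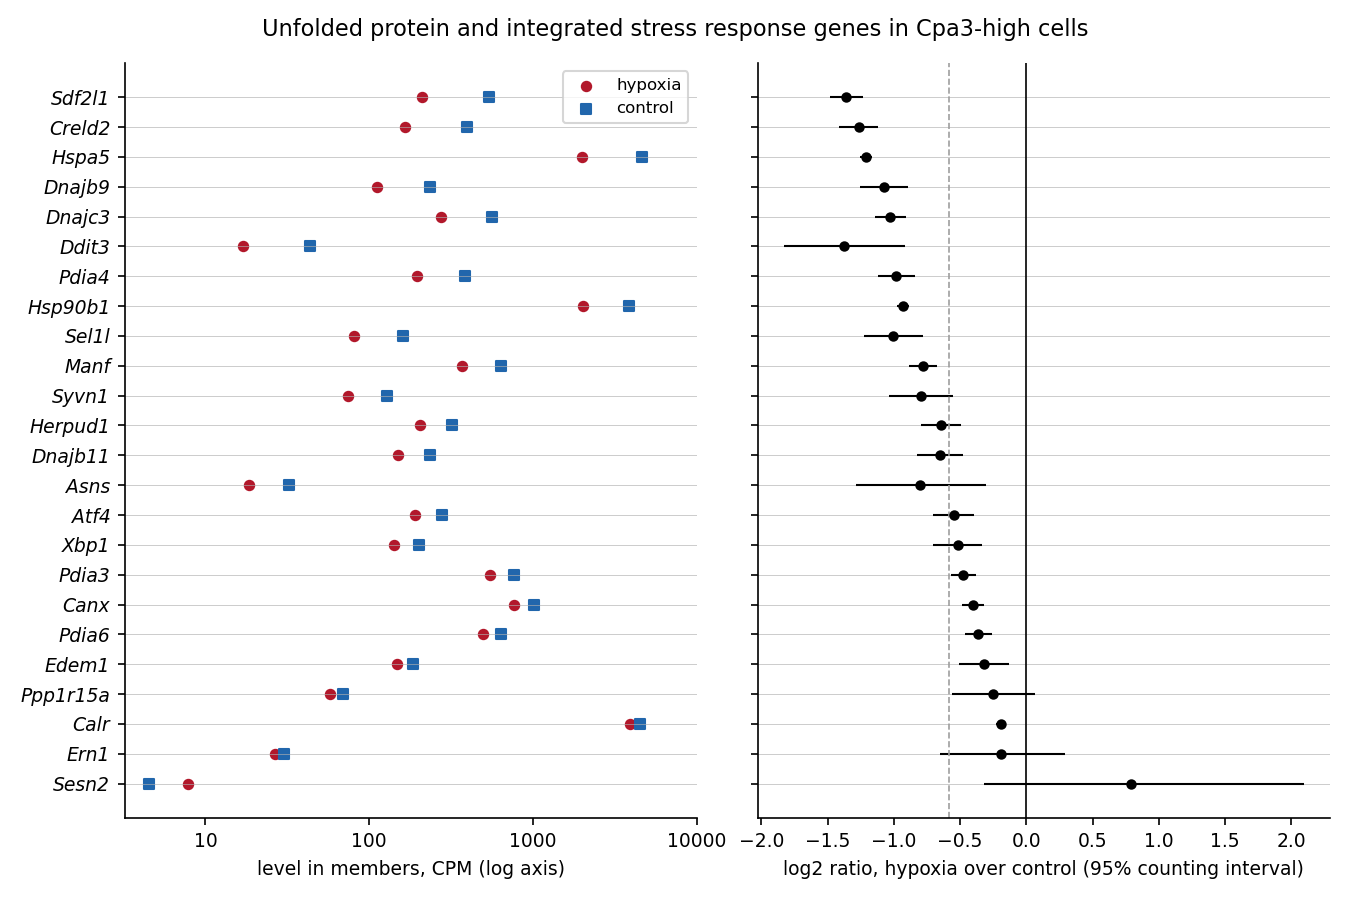
Left, level in members of the 24 measured genes of the unfolded protein response list (CPM, log axis), hypoxia in red circles and control in blue squares; right, log2 ratio of hypoxia over control with its 95% counting interval, the dashed line marking 1.5-fold lower. Of the 24 genes, 23 lie left of 0.

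The promoters of Hspa5, Hsp90b1, Creld2, Dnajc3 and Syvn1 are printed because they belong to lower genes and hold the endoplasmic reticulum stress element, the site described for ATF6 with NF-Y, in capitals. The letters searched were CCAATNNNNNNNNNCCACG on either strand, in the 250 bases before the RefSeq start on GRCm38.p6, with each window written on the strand of its gene. Read along the strand of the gene, the first capital lies 65 bases before the start in Hspa5 (chr2:34771840-34772089, plus strand). In Hsp90b1 (chr10:86705445-86705694, minus strand) it lies 212 bases before the start, and a further match, on the other strand, begins at 107 bases. In Creld2 (chr15:88819396-88819645, plus strand) the match is on the other strand and begins at 126 bases. It begins at 105 bases in Dnajc3 (chr14:118937682-118937931, plus strand) and at 44 bases in Syvn1 (chr19:6046326-6046575, plus strand).
Hspa5: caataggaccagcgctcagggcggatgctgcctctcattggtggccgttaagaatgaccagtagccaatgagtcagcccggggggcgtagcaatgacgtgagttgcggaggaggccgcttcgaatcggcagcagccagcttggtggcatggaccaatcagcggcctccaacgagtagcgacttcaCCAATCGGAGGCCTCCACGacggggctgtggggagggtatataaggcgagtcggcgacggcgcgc
Hsp90b1: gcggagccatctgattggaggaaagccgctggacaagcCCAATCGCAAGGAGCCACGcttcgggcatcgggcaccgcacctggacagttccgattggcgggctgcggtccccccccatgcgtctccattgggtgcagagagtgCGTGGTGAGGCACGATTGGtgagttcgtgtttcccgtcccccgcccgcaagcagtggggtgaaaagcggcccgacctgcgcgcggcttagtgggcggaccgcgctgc
Creld2: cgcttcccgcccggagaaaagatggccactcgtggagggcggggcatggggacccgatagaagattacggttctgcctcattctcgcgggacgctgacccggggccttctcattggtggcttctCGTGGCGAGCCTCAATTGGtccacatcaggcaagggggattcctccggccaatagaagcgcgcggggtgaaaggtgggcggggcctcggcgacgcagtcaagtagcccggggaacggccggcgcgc
Dnajc3: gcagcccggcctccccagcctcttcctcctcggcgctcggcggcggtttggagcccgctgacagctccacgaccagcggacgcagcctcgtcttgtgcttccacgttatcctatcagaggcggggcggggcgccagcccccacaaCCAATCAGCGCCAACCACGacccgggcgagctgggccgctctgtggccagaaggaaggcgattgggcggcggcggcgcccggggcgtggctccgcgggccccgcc
Syvn1: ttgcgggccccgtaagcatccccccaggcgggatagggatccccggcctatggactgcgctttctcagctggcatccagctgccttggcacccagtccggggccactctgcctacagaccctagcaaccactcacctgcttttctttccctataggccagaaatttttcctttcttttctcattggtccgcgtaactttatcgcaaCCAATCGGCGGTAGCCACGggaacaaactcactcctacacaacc
The element was found in 37 of 32851 promoter windows (0.113%) and in 8 of the 26 genes of the list that had a window, Calr, Canx, Creld2, Dnajc3, Hsp90b1, Hspa5, Pdia6 and Syvn1. These 8 had 5 lower genes and a median of −0.83 in members. The 18 genes without it had 15 measured, 7 lower and a median of −0.57. Both the 8 and the 15 thus held lower genes, and the list was known to hold targets of this element.

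Medians of cytosolic chaperone and immediate early genes were below 0 in members and outside the lineage alike. Of 22 heat-shock genes 19 were measured, 6 at least 1.5-fold lower, 0 higher and 13 between, against 2.81% of all genes lower, with a median of −0.35 in members. In all other kept cells 13 of 22 were lower, against 1.13% of all genes, with a median of −0.67. Hsph1 had 41.9 CPM in hypoxia and 109 CPM in control, Hspa8, the constitutive HSC70 gene, 505 and 923 CPM, and Hsp90ab1 1290.0 and 2064 CPM. Of 28 immediate early genes 22 were measured, 8 lower, 0 higher and 14 between, with a median of −0.47 in members and −0.42 in all other kept cells (10 of 27 lower, 1 higher). Ier2 had 335 and 599 CPM, Junb 199 and 347 CPM, Tnfaip3, an inhibitor of NF-κB signalling, 154 and 293 CPM, and Nfkbiz 44.1 and 104 CPM. Fos and Jun had 861 and 1223 CPM, and 1379.7 and 1708 CPM.

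Of 45 ribosomal protein genes, 10 were at least 1.5-fold lower and 0 higher, against 2.81% of all genes lower, with 44 of 45 below 0 and a median of −0.37, against −0.27 in Cpa3-low and −0.15 in all other kept cells. Rplp2 had 1437 CPM in hypoxia and 2615 CPM in control, and Rpl30 had 757 and 1455 CPM. Ribosomal protein genes have many processed pseudogenes, and how reads were divided among them is not stated.

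Of 16 measured MHC class I and peptide-loading genes, 7 were at least 1.5-fold higher, 0 lower and 9 between (2 of them below 0), against 4.90% of all genes higher, with a median of 0.36 in members. In all other kept cells 9 of 18 were higher, against 2.33% of all genes, with a median of 0.61. Besides H2-D1, H2-K1 had 599 CPM in hypoxia and 321 CPM in control, B2m, the invariant light chain, 1425 and 878 CPM, and the immunoproteasome gene Psmb9 32.8 and 14.2 CPM. The Q-region genes H2-Q7, H2-Q6 and H2-Q4 had 28.0 and 3.98 CPM, 13.1 and 1.71 CPM, and 62.9 and 34.1 CPM. H2 genes are polymorphic near-copies of each other, and in outbred mice the alleles present can change how reads are assigned. Without all H2 genes the median of the 8 remaining genes was 0.34. Of 8 MHC class II genes 4 were measured and 1 was higher, H2-DMb1 at 14.8 and 5.69 CPM, with a median of 0.51. Interferon response genes had 18 of 34 measured, with 3 higher (Ifit2, Igtp and Ifi47, the last at 66.6 and 39.3 CPM), 0 lower and a median of 0.15. Summed over the list, however, the level was lower in hypoxia, at 3928 CPM against 4293 CPM in control.

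Targets of the hypoxia-inducible factors (HIF), which activate transcription when oxygen is low, passed the fold at about the rate of all genes. Of 35 targets 25 were measured, with 2 higher and 1 lower, against 4.90% and 2.81% of all measured genes, and a median of 0.20 in members, against 0.01 in Cpa3-low and −0.01 in all other kept cells. The transferrin receptor gene Tfrc had 127 CPM in hypoxia and 35.3 CPM in control, and its log2 ratio was 1.22 without members with erythroid markers. Mxi1 had 51.6 and 29.0 CPM, and Ddit4, an inhibitor of mTORC1, had 107 and 245 CPM. Vegfa had 9.57 and 9.11 CPM and Hif1a 89.0 and 88.2 CPM. Of 23 glycolysis genes 19 were measured and 0 passed 1.5-fold in either direction, with a median of 0.08, and Ldha had 572 and 382 CPM. Nuclear oxidative phosphorylation genes had 35 measured, 0 past the fold and a median of 0.11.

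Summed cell cycle genes differed little over all members, by an amount that varied between terciles. S phase genes had 30 measured, 1 higher (Rrm2, 186 CPM in hypoxia and 109 CPM in control) and a median of 0.11. Their summed ratio of hypoxia over control was 1.27, 1.20 and 0.863 from the lowest to the highest tercile. G2/M genes had 38 measured, 1 higher (Cenpa, the centromeric histone, 274 and 179 CPM) and a median of 0.26. Summed G2/M genes had 6649, 10380.3 and 12189.8 CPM from the lowest to the highest tercile in hypoxia and 6355, 7446 and 11679 CPM in control, with the widest gap in the middle tercile. Mki67 had 565 and 459 CPM over all members, and 54.5% and 44.3% of members thinned to 3000 UMIs had a UMI of it. Among cell cycle inhibitors and D cyclins, 2 of 10 measured genes were lower, Ccnd2 and the antiproliferative Btg2 (74.5 and 132 CPM). Bcl2, a survival gene, was the 1 lower gene of 10 measured in its family, at 72.4 and 120.1 CPM.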

How the data were processed

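The authors deposited raw UMI counts for each cell and gene, corrected for errors by recursive substitution. Per the file headers, GENCODE vM19 on GRCm38 was the annotation and version 1.7.1 of the BD WTA Rhapsody Analysis Pipeline the software. The submitters' processing notes add Bowtie2. The cell calling step is not stated. The hypoxia and control tables had 26060 and 26039 gene columns, 24393 of them in common, and absent columns were read as 0. Depth was 137504361 and 121415081 UMIs.

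Cells were kept below 20% mitochondrial UMIs and members found by the rule. Doublets stayed in; Scrublet in scanpy 1.11.5 marked 112 hypoxia cells (1.75%) and 33 control cells (0.834%), of which 10 and 2 were members. Raw counts were summed over the members of a library and scaled to a total of 1000000 (CPM). Ratios are hypoxia over control, with 10 CPM added on the log2 scale. A gene counted as measured from 50 UMIs in the 2 libraries together, and as past the fold at 1.5. Intervals of ratios and shares are exact 95% Poisson and Clopper-Pearson intervals and cover counting error only, and libraries are not replicated. Named genes were the 12 highest and 12 lowest log2 ratios among genes with at least 50 CPM and a UMI in at least 10% of members of the higher library, and the 10 most different from other cells in both libraries. Thinned shares used 3000 UMIs per cell, seed 0. The members and gene lists were chosen with earlier results of these data known. The calculations were tested on simulated counts. Single values of a few list genes are not reported here.

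Promoters are from RefSeq on GRCm38.p6 and gene positions from GENCODE vM21. Alternatives changed the thresholds, doublets, depth, scaling (edgeR 4.0.16, DESeq2 1.42.0), added CPM, minimum, averaging, top cell and weighting by terciles. Python 3.11.15 (numpy 2.4.6, scipy 1.17.1, pandas 2.3.3, matplotlib 3.10.9) and R 4.3.3 were used.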

Additional observations from a re-analysis of the deposited data

Results flagged for a closer look

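Each of 6 genes was higher in hypoxia in members and lower in Cpa3-low basophil-lineage cells, or the reverse, with 1 library in each group. The differences between the classes of cells were not tested. The share of UMIs in 1 cell was not calculated for the 135 hypoxia and 90 control Cpa3-low cells. Their UMIs per cell reached 43703 and 41385, against medians of 4062 and 4612. Under the alternatives run, log2 ratios in members were 0.21 to 1.87 for Elane, −0.22 to 0.98 for Prtn3 and 0.23 to 2.20 for Ly6c2. They were 1.84 to 4.46 for S100a9, −1.27 to −0.42 for Klf4 and −2.72 to −0.60 for Pf4. Elane, the neutrophil elastase gene, had 77.5 CPM in hypoxia and 20.5 CPM in control members (log2 ratio 1.52), with 33.2% of the hypoxia UMIs in 1 cell, and 266 and 735 CPM in Cpa3-low cells (−1.43). Prtn3, the proteinase 3 gene, had 146 and 79.7 CPM in members (0.795, with 19.8% of the hypoxia UMIs in 1 cell), and 465 and 873 CPM in Cpa3-low cells (−0.89). Ly6c2, a marker of monocytes, had 50.5 and 10.2 CPM in members (1.58, with 37.2% of hypoxia and 55.6% of control UMIs in 1 cell of each library), and 111 and 337 CPM in Cpa3-low cells (−1.53). S100a9, a neutrophil calgranulin gene, had 71.1 and 2.28 CPM in members (2.72, with 52.0% of the hypoxia UMIs in 1 cell), and 80.4 and 131 CPM in Cpa3-low cells (−0.64). Klf4, a transcription factor of monocytes, had 10.5 and 26.7 CPM in members (−0.841), and 65.7 and 5.94 CPM in Cpa3-low cells (2.25). Pf4, a platelet chemokine gene, had 2.44 and 21.6 CPM in members (−1.35, with 60.5% of the control UMIs in 1 cell), and 464 and 1.49 CPM in Cpa3-low cells (5.37).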

How the results depend on the processing

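No paired analysis was possible because each group had 1 library. With 1 CPM added in place of 10, 869 genes were at least 1.5-fold higher in hypoxia members and 504 lower, against 435 and 250. With the mean of per-cell CPM, 403 were lower. With a Cpa3 minimum of 40 CP10K, the ratio of member shares was 3.07, and under the other alternatives it was 1.95 to 2.19. Signs turned for Car1 in thinned cells (−0.25), Prg2 with a Cpa3 minimum of 10 CP10K (−0.082), Prtn3 with the mean of per-cell CPM (−0.22) and Tpsb2 without the top cell of each library (0.63). The S phase median was −0.035 and that of oxidative phosphorylation −0.021 with the mean of per-cell CPM. No other gene named here and past 1.5-fold turned sign, nor did any other list median of at least 0.1. The unfolded protein median ranged from −0.85 to −0.57, the class I median from 0.31 to 0.52 and the surface and homing median from 0.42 to 0.58. TMM scaling moved the median of all genes by −0.046. In thinned cells 566 genes were higher and 337 lower, of which 302 were among the 685 past the fold at full depth; the cause was not tested. Depth limits genes under about 50 UMIs, most of all in the 144 control members.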
